A study of Mus musculus with 15 samples.

Results

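The 10 genes described here belong to the integrated stress response and to the serine synthesis route that it feeds. They were taken by gene symbol from a table of 17832 genes measured by RNA-seq in mouse kidney, and all 10 were found. Atf4 and Ddit3 encode transcription factors and Trib3 a pseudokinase of the same arm. Asns, Chac1 and Eif4ebp1 are effectors in amino acid supply, glutathione breakdown and translation. Phgdh, Psat1 and Psph encode the successive enzymes of serine synthesis, and Shmt2 the mitochondrial enzyme that turns serine into glycine.

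The integrated stress response starts when kinases phosphorylate the translation initiation factor eIF2, which slows general translation while the messenger RNA of Atf4 is translated more. ATF4 protein then pairs with partners such as C/EBP proteins and raises genes of amino acid transport, asparagine and serine synthesis and tRNA charging. In the kidney, the proximal tubule makes serine, in part from glycine, and releases it to the blood. RNA levels show neither the phosphorylation of eIF2 nor the translation of Atf4.

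The study compared kidneys of diabetic db/db mice, which lack a working leptin receptor, with those of m/m controls, and db/db mice given dapagliflozin with db/db mice given vehicle. Dapagliflozin inhibits SGLT2, the sodium-glucose cotransporter of the proximal tubule. All mice were male, of the strain C57BLKS/J and 22 weeks old. The m/m and db/db vehicle groups received 0.5% methylcellulose, and the treated db/db group received 1 mg/kg dapagliflozin in the same vehicle, with 5 libraries in each group. The mutation is present in every cell of the db/db animals, and the labels do not say how long treatment lasted, whether animals were pooled or whether each library came from its own animal, so that p-values describe no more than the spread of these libraries, which may be technical.

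The libraries fell into sets of very different depth that cross the groups. All of m/m and replicates 1 to 3 of db/db vehicle had 14.8 to 16.4 M reads in genes (the high-read set), whereas replicates 4 and 5 of db/db vehicle and all of dapagliflozin had 1.60 to 2.29 M (the low-read set). The genotype was therefore compared in the high-read set (3 db/db vehicle libraries against 5 m/m libraries) and the drug in the low-read set. Levels are FPKM, the authors' reads per kilobase of transcript and M reads, and differences are on the log2(FPKM + 1) scale with limma's test and Benjamini-Hochberg adjustment over 12869 genes, those with a mean of at least 0.5 FPKM. Genes with an adjusted p under 0.05 count as called. Markers of proximal tubule, thick ascending limb, collecting duct and podocytes were detected in every group, and 4 adipocyte markers summed to at most 0.456 FPKM in a library. The added 1 makes the difference of a low gene smaller than its ratio of FPKM.

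Several low-read libraries were more alike than separate samples would be. The variance of read numbers between a pair of libraries, divided by what sampling alone gives, was 0.724 for dapagliflozin 2 and 3 over genes with 20 to 99 reads, and these were averaged into 1 sample, which leaves 4 dapagliflozin samples. The same ratio was 0.728 for db/db vehicle 5 and dapagliflozin 1 and 0.757 for db/db vehicle 4 and dapagliflozin 5, which carry labels of opposite treatments. Over all genes with at least 20 reads the 3 ratios were 1.02, 0.998 and 1.66, so db/db vehicle 4 and dapagliflozin 5 did differ in abundant genes. Dapagliflozin 1 and 2 stood at 0.886 over genes with 20 to 99 reads. The pairs of m/m libraries stood at 1.84 to 3.13 and those of db/db vehicle 1 to 3 at 4.53 to 7.50. At ratios under 1 the libraries differed by less than sampling noise, so the vehicle and treated libraries of the low-read set cannot be taken as clearly independent. Each drug result below was also computed without these pairs.

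**Figure D1:**
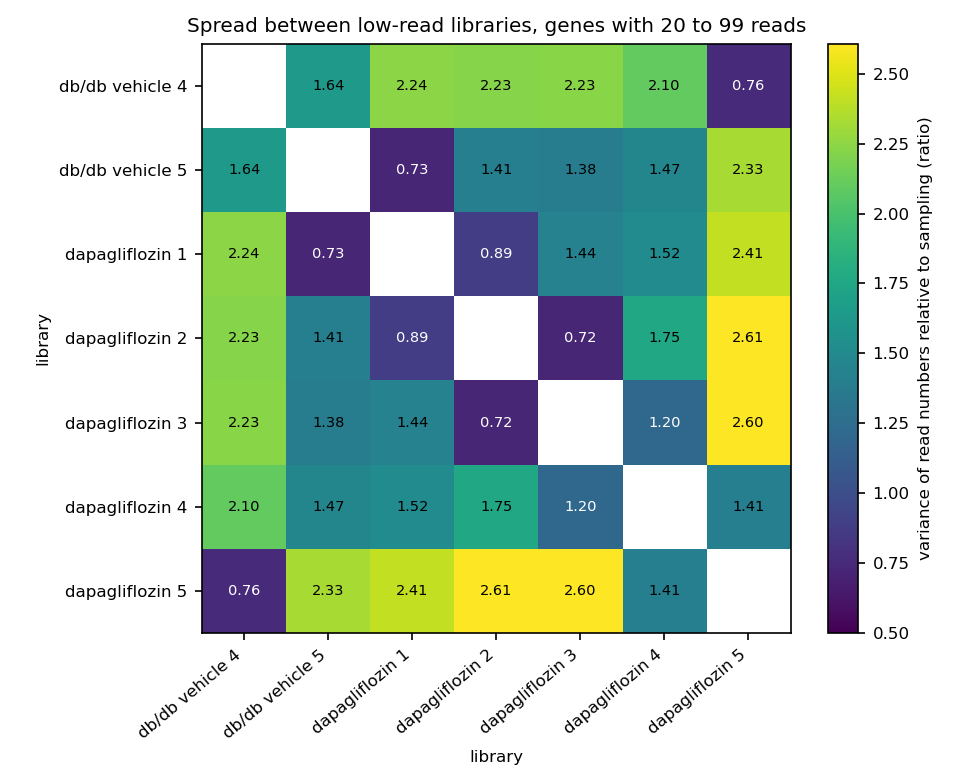
Variance of read numbers between each pair of the 7 low-read libraries (both axes), divided by the variance that sampling gives, over genes with 20 to 99 reads. The pairs of db/db vehicle 5 with dapagliflozin 1 (0.73) and db/db vehicle 4 with dapagliflozin 5 (0.76) are as low as dapagliflozin 2 with 3 (0.72), whereas db/db vehicle 4 and 5 stand at 1.64.

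Of the 10 genes, 8 passed the filter on low values and were tested, and Trib3 and Chac1 did not pass it. In db/db vehicle kidney 5 of the 8 rose (Atf4, Ddit3, Eif4ebp1, Phgdh and Psat1) and Shmt2 fell. Over all genes tested, 29.5% rose and 8.31% fell. The libraries did not overlap between genotypes for the same 6 genes, 5 higher and 1 lower, while 37.5% of all genes tested were higher and 10.2% lower without overlap. The median difference of the 8 was 0.57, against 0.16 over all genes tested. After median-of-ratios scaling, which moves the median of all genes to 0.00 (unrounded −0.00458) and the shares called to 11.6% higher and 18.3% lower, 3 of the 8 rose (Atf4, Ddit3 and Phgdh) and Shmt2 fell.

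**Figure D2:**
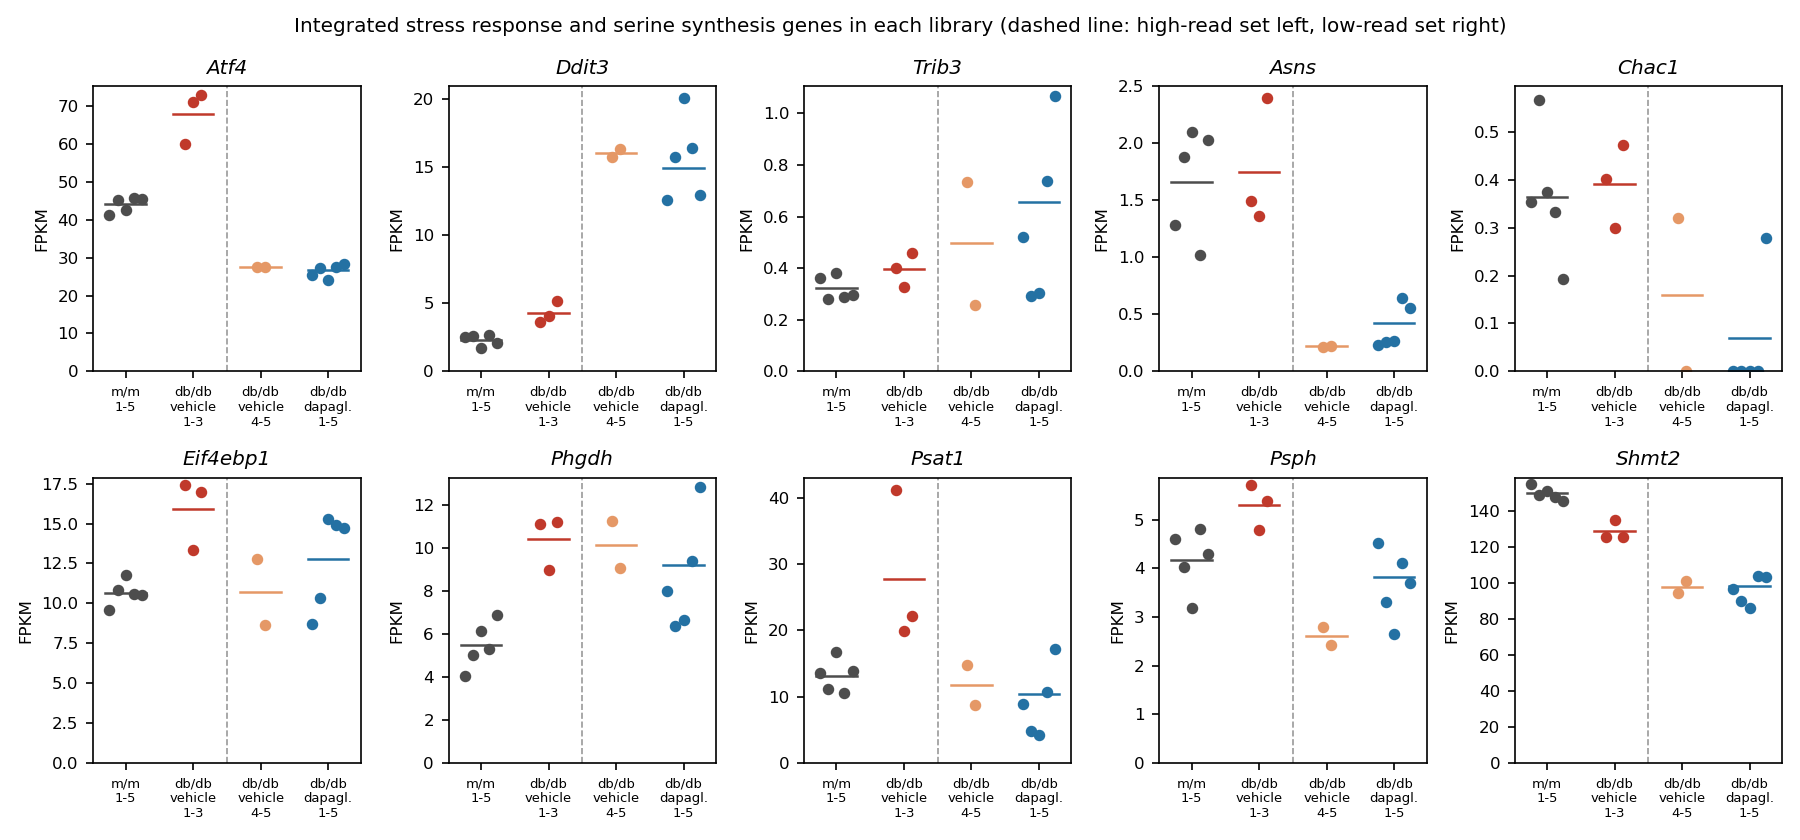
FPKM of the 10 genes in each of the 15 libraries, grouped on the horizontal axis; points are libraries, horizontal lines are means over samples (dapagliflozin 2 and 3 averaged), and the dashed line separates the high-read set from the low-read set. Atf4, Ddit3, Eif4ebp1, Phgdh and Psat1 are higher and Shmt2 is lower in all 3 high-read db/db vehicle libraries than in all 5 m/m libraries, and several genes differ more between the sets of libraries than between the groups.

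Atf4, the transcription factor on which the response converges, was at 41.3, 45.1, 42.6, 45.8 and 45.5 FPKM in m/m 1 to 5 and at 60.0, 71.1 and 72.9 FPKM in db/db vehicle 1 to 3. Every db/db library was above every m/m library. The mean rose from 44.1 ± 2.001 (SD, n = 5) to 68.0 ± 6.97 FPKM (SD, n = 3), a log2 difference of 0.61 (95% interval 0.46 to 0.76, limma adjusted p = 2.17e-05), or 0.45 above the median of all genes. With all 10 db/db and m/m vehicle libraries pooled across the sets, this difference was 0.10 (adjusted p = 0.776), and the low-read db/db vehicle libraries held 27.5 and 27.5 FPKM, below every m/m library.

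Ddit3 encodes CHOP, a C/EBP-family factor induced by ATF4 in prolonged stress. It stood at 2.52, 2.59, 1.72, 2.68 and 2.10 FPKM in m/m 1 to 5, which is 64 to 100 reads a library, and at 3.62, 4.03 and 5.13 FPKM in db/db vehicle 1 to 3. The groups did not overlap, and db/db vehicle 3 was the highest. The mean rose from 2.32 ± 0.404 (SD, n = 5) to 4.26 ± 0.778 FPKM (SD, n = 3), by 0.66 on the log2 scale (0.37 to 0.95, limma adjusted p = 0.00202). Ddit3 shares 68 exonic bases with Mars, the methionyl-tRNA synthetase gene on the opposite strand, and whether reads were counted by strand is not given in the sources used here. In the table that neighbour is Mars1, whose own difference was 0.14 (limma adjusted p = 0.374).

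Trib3, a pseudokinase that binds ATF4 and dampens its activity, was barely detected, at 0.279 to 0.382 FPKM (9 to 12 reads) in the m/m libraries and 0.327 to 0.460 FPKM (10 to 14 reads) in the db/db ones. The groups overlapped, and in a fit with no filter the difference was 0.08 (−0.21 to 0.36, limma adjusted p = 0.728). The lowest m/m value was that of m/m 2 and the highest db/db value that of db/db vehicle 3.

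The remaining effectors split. Asns makes asparagine from aspartate and glutamine and is a widely used readout of ATF4 activity. Its levels were 1.28, 1.88, 2.10, 1.02 and 2.03 FPKM in m/m 1 to 5 and 1.49, 1.36 and 2.39 FPKM in db/db vehicle 1 to 3. The ranges overlapped almost entirely, and the difference of 0.05 (−0.32 to 0.41, limma adjusted p = 0.851) turned to −0.09 after median-of-ratios scaling. Chac1, which cleaves glutathione, stood at 0.194 to 0.57 FPKM (5 to 14 reads) in m/m and 0.299 to 0.473 FPKM (7 to 11 reads) in db/db vehicle. These groups overlapped too, with a difference of 0.03 (−0.21 to 0.27, limma adjusted p = 0.896 in a fit with no filter) that turned to −0.03 after scaling.

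Eif4ebp1 encodes 4E-BP1, which binds the cap-binding factor eIF4E and so holds back cap-dependent translation. Its levels were 9.58, 10.8, 11.8, 10.6 and 10.5 FPKM in m/m 1 to 5 and 17.5, 13.3 and 17.0 FPKM in db/db vehicle 1 to 3. No db/db library reached down to the m/m range, and db/db vehicle 2 was the nearest to it. The mean rose from 10.7 ± 0.790 (SD, n = 5) to 15.9 ± 2.25 FPKM (SD, n = 3), by 0.53 (0.19 to 0.87, limma adjusted p = 0.0187). The call was lost in 6 of 20 alternatives. These were median-of-ratios scaling (0.32, adjusted p = 0.107), that scaling within sets (0.34, adjusted p = 0.102) and quantile normalization (0.41, adjusted p = 0.0542). The others were pooling all libraries (0.31, adjusted p = 0.187) and leaving out db/db vehicle 1 (0.46, adjusted p = 0.0769) or db/db vehicle 3 (0.48, adjusted p = 0.0756). A transcript of another locus matches Eif4ebp1 at 93.3% identity over at least 300 bases, so its reads are uncertain to that extent.

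Promoter windows are shown for the 3 genes whose window holds the letters of the C/EBP-ATF response element, to which ATF4 binds with its partners, and for 2 genes that rose, Atf4 and Phgdh. They run from 250 bases before to 30 bases after the transcript start, in the gene's own direction, from RefSeq on GRCm38.p6, and capitals mark the letters TGATGNAA of the C/EBP-ATF response element or, read on the opposite strand, TTNCATCA.
Asns (chr6:7693180-7693459, minus strand): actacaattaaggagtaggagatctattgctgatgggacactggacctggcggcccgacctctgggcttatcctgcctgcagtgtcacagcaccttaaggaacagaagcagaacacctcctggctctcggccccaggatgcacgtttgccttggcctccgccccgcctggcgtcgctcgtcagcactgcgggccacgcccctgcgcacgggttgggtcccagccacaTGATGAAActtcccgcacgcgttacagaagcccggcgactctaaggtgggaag
Trib3 (chr2:152344031-152344310, minus strand): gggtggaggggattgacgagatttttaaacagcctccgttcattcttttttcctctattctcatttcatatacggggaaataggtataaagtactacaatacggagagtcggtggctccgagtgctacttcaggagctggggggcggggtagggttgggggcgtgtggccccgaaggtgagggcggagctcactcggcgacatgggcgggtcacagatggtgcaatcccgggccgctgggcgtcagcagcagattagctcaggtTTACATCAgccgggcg
Chac1 (chr2:119350992-119351271, plus strand): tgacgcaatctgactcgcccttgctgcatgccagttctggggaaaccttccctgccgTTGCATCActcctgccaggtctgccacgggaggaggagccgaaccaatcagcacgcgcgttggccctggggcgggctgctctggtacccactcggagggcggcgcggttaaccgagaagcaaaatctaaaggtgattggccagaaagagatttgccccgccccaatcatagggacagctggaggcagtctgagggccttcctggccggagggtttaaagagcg
Atf4 (chr15:80254934-80255213, plus strand): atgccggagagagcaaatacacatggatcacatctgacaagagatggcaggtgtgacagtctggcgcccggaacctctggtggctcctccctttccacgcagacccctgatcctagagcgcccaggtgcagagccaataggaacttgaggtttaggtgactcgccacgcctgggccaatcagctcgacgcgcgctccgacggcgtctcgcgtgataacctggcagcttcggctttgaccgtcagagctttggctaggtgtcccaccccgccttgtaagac
Phgdh (chr3:98339940-98340219, minus strand): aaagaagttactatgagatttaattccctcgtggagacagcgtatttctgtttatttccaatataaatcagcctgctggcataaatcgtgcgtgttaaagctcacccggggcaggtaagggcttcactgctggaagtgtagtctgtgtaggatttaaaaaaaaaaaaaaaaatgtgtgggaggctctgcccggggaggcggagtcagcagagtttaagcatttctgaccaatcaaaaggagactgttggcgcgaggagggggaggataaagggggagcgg
The windows had entries for 9 of the 10 genes (10 windows in all), and Eif4ebp1 is named only. These letters were found in the windows of Asns (first base at −23 from the start), Trib3 (at 15, inside the transcript) and Chac1 (at −193). No match occurred in the windows of Atf4, Ddit3, Phgdh, Psat1, Psph and Shmt2 over 250 bases before and 50 from the start. Of all 32851 windows of that length, 3.97% held these letters. The ER stress response element, the letters CCAAT and CCACG with 9 bases between them, was found in none of the 9 genes and in 0.119% of all windows. A match is a description of the letters and not a measured binding site.

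Of the 3 serine synthesis enzymes, Phgdh and Psat1 were called and Psph missed the threshold, all with differences above 0, which were not tested against each other. Phgdh encodes the dehydrogenase that commits 3-phosphoglycerate to serine. It was at 4.06, 5.04, 6.15, 5.30 and 6.89 FPKM in m/m 1 to 5 and at 11.1, 8.97 and 11.2 FPKM in db/db vehicle 1 to 3. All db/db libraries were above all m/m libraries. The mean rose from 5.49 ± 1.08 (SD, n = 5) to 10.4 ± 1.27 FPKM (SD, n = 3), by 0.83 (0.44 to 1.21, limma adjusted p = 0.00309), and the call held under all 20 alternatives (adjusted p 0.000743 to 0.0184). In the annotation 22 other transcripts match Phgdh at 90.4% to 99.2% identity over at least 300 bases and none of them is in the table, so its read number is uncertain.

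Psat1, the aminotransferase that draws nitrogen from glutamate for the next step, was at 13.5, 11.1, 16.7, 10.6 and 13.8 FPKM in m/m 1 to 5. It was at 41.2, 19.9 and 22.1 FPKM in db/db vehicle 1 to 3. The groups did not overlap, but db/db vehicle 1 alone held nearly as much as the other two together. The mean rose from 13.1 ± 2.44 (SD, n = 5) to 27.8 ± 11.7 FPKM (SD, n = 3), a log2 difference of 0.97 (0.27 to 1.67, limma adjusted p = 0.0315). Without db/db vehicle 1 the difference was 0.66 and was no longer called (adjusted p = 0.167). The call was also lost without db/db vehicle 3 (1.09, adjusted p = 0.0524), without m/m 2 (0.92, adjusted p = 0.0614) and without m/m 4 (0.90, adjusted p = 0.0623). Under median-of-ratios scaling the difference was 0.76 and not called (adjusted p = 0.0777). Nor was it called with that scaling within sets (0.77, adjusted p = 0.0771) or quantile normalization (0.87, adjusted p = 0.0531). The same held with no filter (0.97, adjusted p = 0.0533) and with all libraries pooled (0.51, adjusted p = 0.285). In all, the call was lost in 9 of 20 alternatives. Another transcript matches Psat1 at 91.0% identity.

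Psph, the phosphatase of the last step, was at 4.60, 4.03, 3.17, 4.81 and 4.30 FPKM in m/m 1 to 5 and at 5.71, 4.79 and 5.39 FPKM in db/db vehicle 1 to 3. Only db/db vehicle 2 fell inside the m/m range, just under m/m 4. The difference of 0.29 (0.02 to 0.55) missed the threshold (limma adjusted p = 0.0803) and passed it with array weights (0.28, adjusted p = 0.0448) and with the replicate block (0.35, adjusted p = 0.0258). Psph shares 452 exonic bases with a transcript of Cct6a, a chaperonin subunit gene on the opposite strand, at a mean of 66.8 FPKM over all libraries, so its reads are uncertain. Cct6a itself differed by −0.18 (limma adjusted p = 0.0319).

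Shmt2 was the most abundant of the 10 per length and moved the other way. It was at 155, 149, 151, 148 and 146 FPKM in m/m 1 to 5 and at 125, 135 and 126 FPKM in db/db vehicle 1 to 3. Every db/db library was below every m/m library. The mean fell from 149.8 ± 3.59 (SD, n = 5) to 128.7 ± 5.65 FPKM (SD, n = 3), a log2 difference of −0.22 (−0.35 to −0.09, limma adjusted p = 0.0119), and the call was lost without db/db vehicle 3 (−0.20, adjusted p = 0.0524). In a whole kidney, fewer cells of a type and less RNA per cell cannot be told apart. Summed levels of 8 proximal tubule markers ranged from 6823 to 7341 FPKM in m/m and from 4103 to 5361 FPKM in db/db vehicle, with 6 of the 8 lower (limma adjusted p under 0.05) and none at 0. Markers of distal convoluted tubule (4 of 4), principal cells (4 of 5), intercalated cells (4 of 5) and podocytes (5 of 5) rose. Fewer did so for thick ascending limb (1 of 4), endothelial cells (2 of 5) and fibroblasts and pericytes (2 of 5). Over all genes tested 29.5% rose, and 11.6% after median-of-ratios scaling. After scaling 4 markers rose in each of the former lists, and 0, 0 and 1 in the latter, where 1, 2 and 0 fell. The part of tissue composition in the lower Shmt2 was not tested.

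**Figure D3:**
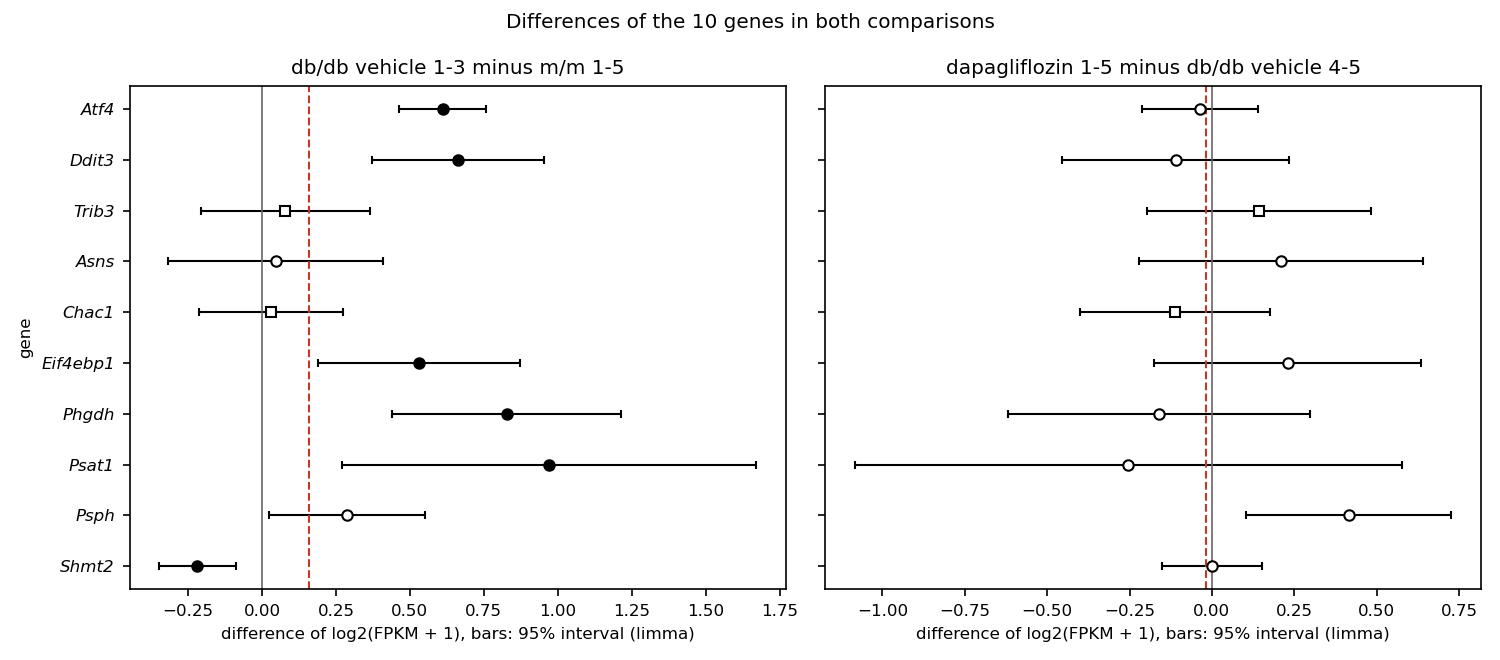
Difference of log2(FPKM + 1) with its 95% interval (horizontal axis) for each gene (vertical axis) between genotypes on the left and between treatments on the right; filled symbols are called, squares are genes below the filter from a fit with no filter, and the dashed line is the median of all genes tested. On the left, 5 genes lie above the median line of 0.16 with intervals clear of it and Shmt2 lies below 0; on the right no gene is called.

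In order of level per length in m/m kidney, Shmt2 (149.8 FPKM) and Atf4 (44.1 FPKM) stood clear of the rest, since their libraries overlapped with no other gene's. Psat1 and Eif4ebp1 came next, at 13.1 and 10.7 FPKM, and their libraries overlapped. Phgdh (5.49 FPKM) and Psph (4.18 FPKM) overlapped as well, followed by Ddit3 (2.32 FPKM) and Asns (1.66 FPKM), which also overlapped. Chac1 and Trib3 were lowest, at 0.365 and 0.321 FPKM, and did not differ beyond their spread.

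Among the 3 high-read db/db vehicle libraries, Psat1 and the summed levels of macrophage and injured tubule markers had the same order. This order was not particular to these lists. Neutrophil sums kept it too, at 76.3, 4.66 and 66.3 FPKM in db/db vehicle 1, 2 and 3. Proximal tubule sums ran in reverse, at 4103, 5361 and 4397 FPKM. In m/m the library with the most Psat1, m/m 3, had the lowest injured tubule sum. Summed over 6 macrophage markers, m/m libraries ranged from 61.0 to 100.6 FPKM. Among the high-read db/db vehicle libraries the sums were 292 FPKM in db/db vehicle 1, 108 in db/db vehicle 2 and 193 in db/db vehicle 3. The sums of 5 injured tubule markers were 270 to 354 FPKM in m/m and 2379, 887 and 998 FPKM in db/db vehicle 1, 2 and 3. No marker of the macrophage or injured tubule list was at 0 in every library of a group. In the low-read set, Psat1 was at 14.7 FPKM in db/db vehicle 4 and 17.2 FPKM in dapagliflozin 5, whose macrophage sums were 446 and 444 FPKM, and at 4.26 to 10.7 FPKM in the others, whose sums were 25.4 to 92.4 FPKM. Among these others the order was not kept, since db/db vehicle 5 (8.71 FPKM of Psat1) had the lowest sum and dapagliflozin 3 (4.26 FPKM) a sum of 36.6 FPKM. Of the macrophage markers, 0 of 6 were called in the genotype comparison (limma, 0 also at an unadjusted p under 0.05, median difference 0.92). Of the 5 injured tubule markers 2 rose, and of 4 neutrophil markers 2 were tested and 2 rose. The part of these cells in the Psat1 level was not tested.

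**Figure D4:**
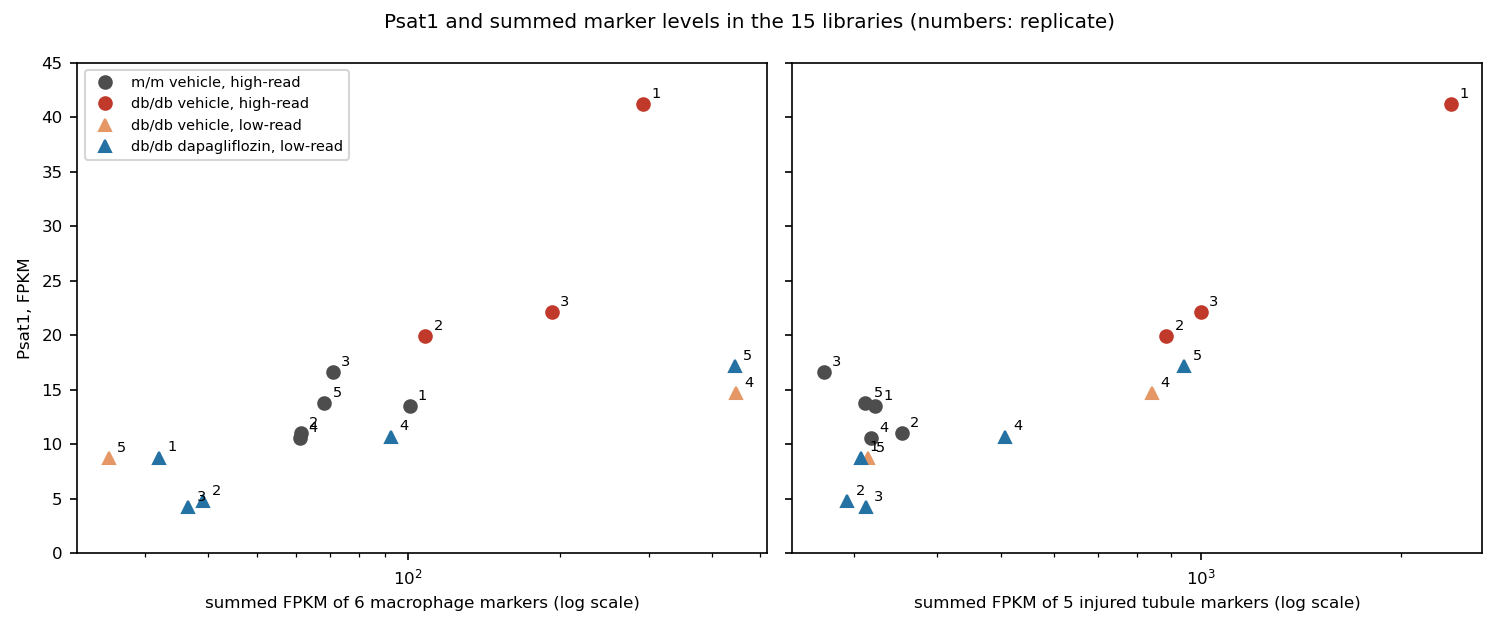
Psat1 in FPKM (vertical axis) against the summed FPKM of 6 macrophage markers (left) and 5 injured tubule markers (right), both on a log scale, for the 15 libraries; colours are groups, circles the high-read and triangles the low-read set, and numbers the replicate. Db/db vehicle 1 stands alone at 41.2 FPKM of Psat1, and db/db vehicle 4 and dapagliflozin 5 lie side by side.

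The genes whose pattern was most like that of Psat1 were Prelid2, C5ar1 and Akap12. Likeness was the root mean square difference of log2(FPKM + 1), centred within each library set, over the 14 samples, and was 0.198 for Prelid2, 0.204 for C5ar1 and 0.231 for Akap12. C5ar1 encodes the receptor of complement fragment C5a. Prelid2 stood at 1.53 FPKM in m/m and 3.57 FPKM in db/db vehicle, C5ar1 at 0.407 and 1.28 FPKM and Akap12 at 2.12 and 3.74 FPKM, and none was called between genotypes (limma adjusted p = 0.0540, 0.0775 and 0.0826).

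Upstream of Atf4, 16 genes were tested, namely the eIF2 kinases, eIF2 and eIF2B subunits, phosphatase adaptors, and Dele1 and Oma1, which relay mitochondrial stress to the kinases, of which 3 rose and 0 fell (limma, 0 lower also at an unadjusted p under 0.05), with a median difference of 0.13 against 0.16 over all genes. After median-of-ratios scaling 1 rose and 4 fell. Over all genes tested the balance turned as well, from 29.5% higher and 8.31% lower to 11.6% higher and 18.3% lower. Every list below is to be read beside these shares. The 4 that fell after scaling were Eif2ak1, Eif2s1, Eif2s3x and Dele1 (−0.20, −0.33, −0.31 and −0.28, limma adjusted p = 0.0463, 0.00125, 0.00953 and 0.00386). The 3 that rose before it were kinases. Eif2ak4 (GCN2, which senses uncharged tRNA) rose from 2.59 to 3.86 FPKM, by 0.44 (limma adjusted p = 0.00124) and by 0.27 after median-of-ratios scaling (adjusted p = 0.0299). It was not called with quantile normalization (0.17, adjusted p = 0.169) or with all libraries pooled (0.05, adjusted p = 0.881). Eif2ak3 (PERK, the kinase of the endoplasmic reticulum) rose from 10.4 to 13.3 FPKM, by 0.34 (limma adjusted p = 0.00704), and was not called after scaling (0.13, adjusted p = 0.239), with quantile normalization (0.20, adjusted p = 0.0776) or pooled (0.07, adjusted p = 0.722). Eif2ak2 (PKR, which senses double-stranded RNA) rose from 4.67 to 5.84 FPKM, by 0.28 (limma adjusted p = 0.0221). The Eif2ak2 call was lost after scaling (0.09, adjusted p = 0.492), with quantile normalization (0.04, adjusted p = 0.800), pooled (0.18, adjusted p = 0.151) and without m/m 2 (0.24, adjusted p = 0.0526), m/m 3 (0.25, adjusted p = 0.0522), db/db vehicle 1 (0.26, adjusted p = 0.0747), db/db vehicle 2 (0.28, adjusted p = 0.0536) or db/db vehicle 3 (0.29, adjusted p = 0.0517).

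Of 9 transcription factors that partner with ATF4 or act beside it, 5 rose and 0 fell (limma, 0 lower also at an unadjusted p under 0.05), with a median difference of 0.41, and 4 of them also rose after scaling. Nupr1, a stress-induced chromatin factor, rose the most, from 7.44 ± 1.57 (SD, n = 5) to 24.2 ± 13.5 FPKM (SD, n = 3), by 1.44 (limma adjusted p = 0.00268). Nfe2l2, which encodes the antioxidant factor NRF2, rose from 33.4 ± 2.18 to 61.9 ± 12.7 FPKM, by 0.85 (limma adjusted p = 3.64e-05), and by less and uncalled when all libraries were pooled (0.47, adjusted p = 0.103). Jun rose by 0.67 (limma adjusted p = 0.00634). Cebpb, an ATF4 partner, rose from 8.27 to 14.4 FPKM, by 0.73 (limma adjusted p = 0.000835), though it shares 312 exonic bases with Tmem189 on the opposite strand and is uncertain. Cebpg rose by 0.32 (limma adjusted p = 0.00547) and was not called after scaling (0.12, adjusted p = 0.360).

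Among 25 tested of 27 other ATF4 target genes, 10 rose and 4 fell, with a median difference of 0.29, and 6 rose and 5 fell after scaling. Pycr1 (0.0538 FPKM in m/m and 0.114 FPKM in db/db vehicle) passed the filter only through the low-read libraries. Gdf15, a secreted stress hormone, rose from 3.0 to 5.94 FPKM, by 0.78 (limma adjusted p = 0.000679), a call that pooling the library sets ended (0.42, adjusted p = 0.151). Amino acid transporters moved in both directions. Slc38a2, a carrier of neutral amino acids, rose from 16.8 to 28.5 FPKM, by 0.72 (limma adjusted p = 0.000458), a call lost when pooled (0.33, adjusted p = 0.260). Slc3a2, the heavy chain shared by several exchangers, rose by 0.59 (limma adjusted p = 0.00103). Slc1a4, which carries serine and other small neutral amino acids, fell from 15.9 ± 1.85 (SD, n = 5) to 5.005 ± 1.10 FPKM (SD, n = 3), by a log2 difference of −1.50 (limma adjusted p = 3.19e-06). Slc6a9, a glycine transporter, fell from 14.4 to 6.01 FPKM, a difference of −1.13 (limma adjusted p = 4.92e-07), and shares 1429 exonic bases with Ccdc24 on the opposite strand, so its reads are uncertain.

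The 20 cytosolic aminoacyl-tRNA synthetase genes, of which ATF4 is known to raise some, had a median difference of 0.05. Of them 2 rose and 0 fell (limma, 2 lower at an unadjusted p under 0.05), and after median-of-ratios scaling 0 rose and 7 fell. Lars, the leucyl enzyme, rose from 9.70 to 13.2 FPKM, by 0.41 (limma adjusted p = 0.00866), and was not called after scaling (0.21, adjusted p = 0.0995) or pooled (0.19, adjusted p = 0.337). Kars, the lysyl enzyme, rose by 0.19 (limma adjusted p = 0.0241) but turned to −0.02 after scaling (adjusted p = 0.839). The Kars call was also lost without m/m 3 (0.18, adjusted p = 0.0555), m/m 5 (0.17, adjusted p = 0.0564) or db/db vehicle 1 (0.13, adjusted p = 0.139).

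Around serine and glycine use, 24 of 25 listed folate and glycine genes were tested, of which 7 rose and 2 fell, with a median difference of 0.15, and 6 rose and 5 fell after scaling. These shares are near those over all genes tested (29.5% higher and 8.31% lower). Sds passed the filter only through the low-read libraries. It was at 0 FPKM in every library compared here, so it could not be called. Gldc, the decarboxylase of the glycine cleavage system, rose from 42.3 ± 5.90 (SD, n = 5) to 182 ± 21.8 FPKM (SD, n = 3), by 2.08 (limma adjusted p = 9.11e-08). Shmt1, the cytosolic counterpart of Shmt2, rose from 19.8 to 34.3 FPKM, by 0.77 (limma adjusted p = 0.000185), opposite in sign to Shmt2, and it shares 184 exonic bases with Smcr8 on the opposite strand. Sfxn3, a mitochondrial serine transporter, rose by 0.91 (limma adjusted p = 0.000125). Mthfd1l, which makes formate in mitochondria, rose from 0.338 to 1.25 FPKM, by 0.74 (limma adjusted p = 0.000118). Glyctk, glycerate kinase, fell from 68.4 to 44.8 FPKM, a difference of −0.60 (limma adjusted p = 0.000165). It shares 2203 exonic bases with the antisense transcript D030055H07Rik, so its reads are uncertain.

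Of the 10 enzymes of glutamate, aspartate, alanine and proline, 9 rose and 1 fell, with a median difference of 0.62, and 7 rose and 1 fell after scaling. Gpt, alanine aminotransferase, rose from 16.0 to 37.8 FPKM, by 1.18 (limma adjusted p = 0.000235). Asrgl1, an asparaginase, rose from 2.44 to 5.81 FPKM, by 0.99 (limma adjusted p = 3.29e-05). Glud1, glutamate dehydrogenase, rose from 198 ± 11.1 (SD, n = 5) to 359.5 ± 64.8 FPKM (SD, n = 3), by 0.84 (limma adjusted p = 2.45e-05). Oat, ornithine aminotransferase, rose by 0.83 (limma adjusted p = 4.60e-05), and Got2, mitochondrial aspartate aminotransferase, by 0.46 (limma adjusted p = 0.000106). With all libraries pooled neither was called (0.38, adjusted p = 0.223 for Oat and 0.18, adjusted p = 0.376 for Got2).

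In the other stress branches more genes fell than rose. Of 18 genes of the ATF6 and XBP1 branches of the unfolded protein response, 2 rose and 9 fell, with a median difference of −0.32, and 0 rose and 12 fell after scaling. Edem1, which marks misfolded glycoproteins for breakdown, fell from 25.9 to 14.7 FPKM, a difference of −0.78 (limma adjusted p = 5.51e-06). Pdia6 (−0.51), a disulfide isomerase, Hsp90b1 (−0.50), a chaperone, Sel1l (−0.46), of the degradation complex, and Dnajc3 (−0.37), a cochaperone, fell as well. The Pdia6 call was lost with all libraries pooled (−0.05, adjusted p = 0.886). Pdia6 overlaps Atp6v1c2 by 50 exonic bases on the opposite strand, and Hsp90b1 overlaps the pseudogene 1810014B01Rik there by 415. Of 8 mitochondrial chaperones and proteases, 0 rose (limma, 1 higher at an unadjusted p under 0.05) and 2 fell, with a median difference of −0.08, and 0 rose and 5 fell after scaling (Hspd1, Hspe1, Lonp1, Yme1l1 and Trap1). Hspd1, the mitochondrial chaperonin, fell from 275 to 193 FPKM, a difference of −0.52 (limma adjusted p = 9.10e-05). Its cochaperonin Hspe1 fell by 0.29 (limma adjusted p = 0.0309). The Hspe1 call was lost without m/m 2 (−0.25, adjusted p = 0.0681), m/m 4 (−0.28, adjusted p = 0.0569), db/db vehicle 1 (−0.25, adjusted p = 0.116) or db/db vehicle 3 (−0.28, adjusted p = 0.0866), and with all libraries pooled (−0.05, adjusted p = 0.819). Hspd1 and Hspe1 share 112 exonic bases on opposite strands.

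Beside Eif4ebp1, 14 genes of mTORC1 and cap-dependent initiation were tested, of which 4 rose and 1 fell, with a median difference of 0.07, and after scaling 0 rose and 5 fell. The shares called before scaling are again near those over all genes. Mtor, the kinase itself, fell from 57.7 ± 5.65 (SD, n = 5) to 31.6 ± 2.08 FPKM (SD, n = 3), a difference of −0.84 (limma adjusted p = 1.54e-05). Mlst8 (0.45), Deptor (0.33), Tsc1 (0.32) and Eif4ebp3 (0.43) rose, none of them called after scaling. Mlst8 shares 997 exonic bases with Bricd5 on the opposite strand and is uncertain. Deptor also lost its call without db/db vehicle 3 (0.22, adjusted p = 0.0632), and Tsc1 when db/db vehicle 2 was left out (0.24, adjusted p = 0.0892) or db/db vehicle 3 was (0.29, adjusted p = 0.0725). Eif4ebp2, the most abundant of the 4E-BP genes per length, was at 80.5 FPKM in m/m and 76.3 FPKM in db/db vehicle (−0.08, limma adjusted p = 0.333).

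Among the 10 paralogs and γ-glutamyl cycle neighbours, 3 rose and 2 fell, with a median difference of 0.02, and 2 rose and 4 fell after scaling. Ggct, which releases amino acids from γ-glutamyl dipeptides, fell from 30.3 ± 3.67 (SD, n = 5) to 7.70 ± 1.02 FPKM (SD, n = 3), a difference of −1.85 (limma adjusted p = 3.19e-06). Ggt1, the brush border enzyme that starts glutathione breakdown outside the cell, fell from 628 to 303 FPKM, a difference of −1.05 (limma adjusted p = 4.92e-07). Oplah, 5-oxoprolinase, rose from 50.02 to 74.3 FPKM, by 0.56 (limma adjusted p = 7.58e-05). It overlaps Exosc4 by 385 and Smpd5 by 296 exonic bases on the opposite strand, so its reads are uncertain. Summed levels of 5 straight proximal tubule markers were 816 to 1161 FPKM in m/m and 89.1 to 110.2 FPKM in db/db vehicle. Of the 5, 4 were called lower and 1 was called higher, and none was at 0. The part of that segment in these levels was not tested. Chac2 (−0.19), Trib1 (0.08) and Trib2 (−0.04) were not called.

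**Figure D5:**
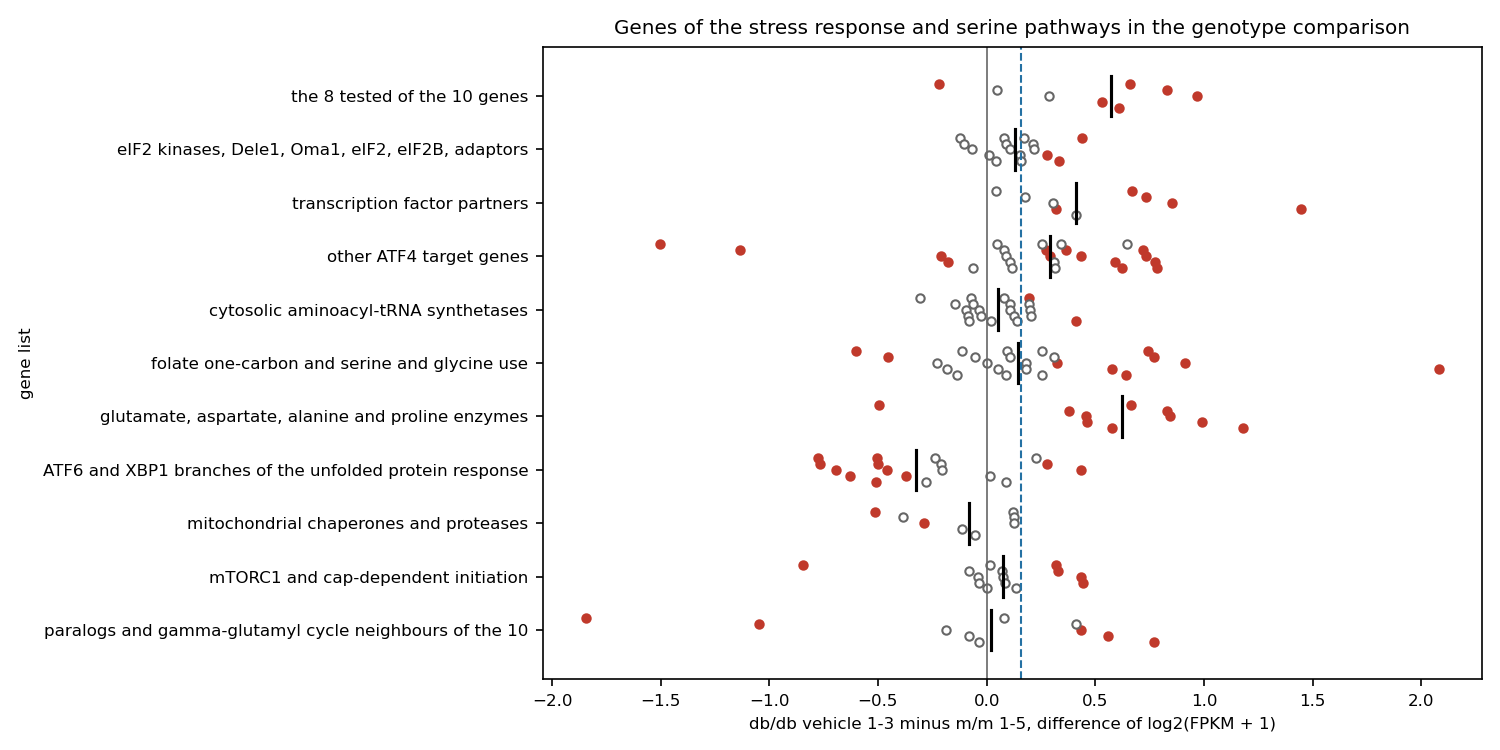
Difference of log2(FPKM + 1) between db/db vehicle 1 to 3 and m/m 1 to 5 (horizontal axis) for every tested gene of each list (vertical axis); filled points are called, open points not called, black bars list medians and the dashed line the median of all genes, 0.16. The 8 tested of the 10 genes and the glutamate group have medians of 0.57 and 0.62, whereas the ATF6 and XBP1 list has a median of −0.32.

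With dapagliflozin, 0 of the 8 tested genes were called, under the settings reported and under all 23 alternatives. Over all genes tested, 0.28% were called, 0.132% higher and 0.148% lower. Psph, 1 of the 8, had an unadjusted p under 0.05, as had 1632 of the 12869 genes. The median difference of the 8 was −0.02, and that over all genes was −0.02 as well. With low-read libraries of 1.60 to 2.29 M reads, Asns had 1 to 3 reads, Trib3 1 to 5 and Chac1 0 or 1, so that a fall from these levels was not detectable at this depth. The difference of Asns was 0.21 with an interval of −0.22 to 0.64 (limma adjusted p = 0.727), 0.28 without db/db vehicle 5 and dapagliflozin 1 and 0.15 without db/db vehicle 4 and dapagliflozin 5. A count of 0 for Chac1, as in 5 of the 7 libraries, allows up to 3 reads, or 0.963 to 1.19 FPKM in those 5, which is above the level in the high-read libraries.

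Atf4 was at 27.5 and 27.5 FPKM in db/db vehicle 4 and 5 and at 25.5, 27.3, 24.2, 27.5 and 28.4 FPKM in dapagliflozin 1 to 5. The vehicle libraries lay inside the treated range. The difference was −0.04 with a 95% interval of −0.21 to 0.14 (limma adjusted p = 0.910), −0.01 without db/db vehicle 5 and dapagliflozin 1, and −0.06 without db/db vehicle 4 and dapagliflozin 5. Ddit3 was at 15.7 and 16.3 FPKM with vehicle and 12.5, 15.7, 20.01, 16.4 and 12.9 FPKM with dapagliflozin (−0.11, −0.45 to 0.23, limma adjusted p = 0.839). Eif4ebp1 was at 12.8 and 8.64 FPKM with vehicle and 8.72, 10.3, 15.3, 14.9 and 14.7 FPKM with dapagliflozin (0.23, −0.18 to 0.64, limma adjusted p = 0.677). In each of these genes the vehicle libraries overlapped with the treated ones. Without db/db vehicle 5 and dapagliflozin 1 the difference was −0.01 for Ddit3 and 0.13 for Eif4ebp1, and without db/db vehicle 4 and dapagliflozin 5 it was −0.08 and 0.42.

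Phgdh was at 11.3 and 9.06 FPKM in db/db vehicle 4 and 5 and at 7.997, 6.38, 6.67, 9.42 and 12.9 FPKM in dapagliflozin 1 to 5 (−0.16, −0.62 to 0.30, limma adjusted p = 0.821). Psat1 was at 14.7 and 8.71 FPKM with vehicle and 8.80, 4.79, 4.26, 10.7 and 17.2 FPKM with dapagliflozin (−0.25, −1.08 to 0.58, limma adjusted p = 0.852). Both sets of values overlapped, and the sign of the Psat1 difference turned without dapagliflozin 2 and 3 (0.05, adjusted p = 0.972) and without db/db vehicle 4 (0.09, adjusted p = 0.975). Shmt2 was at 94.6 and 101.3 FPKM with vehicle and 96.9, 89.9, 86.3, 104.0 and 103.6 FPKM with dapagliflozin, a difference of 0.00 (0.000199 unrounded) with an interval of −0.15 to 0.15. Without db/db vehicle 5 and dapagliflozin 1 the difference was −0.26 for Phgdh, −0.57 for Psat1 and 0.05 for Shmt2. Without db/db vehicle 4 and dapagliflozin 5 it was −0.18 for Phgdh, −0.18 for Psat1 and −0.08 for Shmt2.

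Psph came nearest to a difference. It was at 2.79 and 2.42 FPKM (17 and 14 reads) in db/db vehicle 4 and 5 and at 4.53, 3.31, 2.65, 4.10 and 3.71 FPKM (13 to 26 reads) in dapagliflozin 1 to 5. Dapagliflozin 3 was below db/db vehicle 4, and only after dapagliflozin 2 and 3 were averaged did the groups not overlap, which held for 7.13% of all genes tested in that direction. The difference was 0.41 (0.10 to 0.73, limma adjusted p = 0.241), and 0.27 without db/db vehicle 5 and dapagliflozin 1 (adjusted p = 0.553) and 0.50 without db/db vehicle 4 and dapagliflozin 5 (adjusted p = 0.392). Asns also did not overlap, at 0.213 and 0.224 FPKM against 0.226 to 0.639 FPKM, but both vehicle libraries and dapagliflozin 1, 2 and 3 held 1 read each, so their order is that of library size.

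In the pathway lists, 1 gene was called with dapagliflozin. Eif4ebp3, a paralog of Eif4ebp1, was at 10.5 and 11.5 FPKM in db/db vehicle 4 and 5 and at 6.04, 6.22, 6.50, 3.94 and 4.18 FPKM in dapagliflozin 1 to 5. All treated libraries were below both vehicle libraries. With dapagliflozin 2 and 3 averaged, 8.31% of all genes tested were lower without overlap. These Eif4ebp3 levels rested on 24 and 25 reads with vehicle and 9 to 13 reads with dapagliflozin. The difference was −0.99 (−1.34 to −0.63, limma adjusted p = 0.0328). It kept its sign and size but not its call without db/db vehicle 4 (−1.05, adjusted p = 0.115), db/db vehicle 5 (−0.93, adjusted p = 0.168) or dapagliflozin 4 (−0.89, adjusted p = 0.0768), without db/db vehicle 5 and dapagliflozin 1 (−1.002, adjusted p = 0.124), without db/db vehicle 4 and dapagliflozin 5 (−0.98, adjusted p = 0.113) and in a fit of the low-read libraries alone (adjusted p = 0.854). Eif4ebp3 lies at the end of a read-through transcript with its neighbour Ankhd1 and shares 501 exonic bases on the same strand with that transcript, so its reads are uncertain. Ankhd1 was at 11.8 and 11.5 FPKM with vehicle and 10.6 to 11.9 FPKM with dapagliflozin. In the genotype comparison Eif4ebp3 rose from 11.01 to 15.1 FPKM (0.43, limma adjusted p = 0.0258), a call that was lost without m/m 1 (adjusted p = 0.0526), m/m 3 (0.0571), m/m 5 (0.0556), db/db vehicle 1 (0.0671), db/db vehicle 2 (0.0586) or db/db vehicle 3 (0.0751).

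The sets of libraries differed far more than the treatments did, within the same db/db vehicle label. Between db/db vehicle 4 and 5 and db/db vehicle 1 to 3, 7 of the 8 tested genes were called, while 18.8% of all genes were higher and 42.3% lower in the low-read set. Atf4 was lower by 1.27 on the log2 scale in the low-read libraries (a difference of −1.27, limma adjusted p = 1.92e-08), at 27.5 against 68.0 FPKM. Ddit3 went the other way, at 16.0 against 4.26 FPKM (1.70, limma adjusted p = 1.06e-06). Asns (−1.16), Psat1 (−1.15), Psph (−0.80), Eif4ebp1 (−0.54) and Shmt2 (−0.39) were lower, and Phgdh did not differ by this test (−0.03, −0.52 to 0.45). The labels give these 5 libraries the same genotype, age and vehicle, and the sources used here do not say what separates the sets. The m/m and dapagliflozin groups each lie within 1 set, so a direct comparison of dapagliflozin with m/m cannot be told apart from the sets and was not made.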

How the data were processed

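The authors deposited 1 table of FPKM per gene for 17832 genes and 15 kidney libraries, made from stranded messenger RNA libraries per the labels' protocols. Trimmomatic, HISAT2, HTSeq, Cufflinks and the build GRCm39 are named, with no versions, in the submitters' processing notes, and the strand setting of the counting is not given in the sources used here. Within a gene, 100% of the deposited FPKM were integer multiples of a common step (relative tolerance 1e-08), from which read numbers were recovered. FPKM are scaled to each library's total, so a shift in a few abundant genes moves all others.

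Differences were fitted on log2(FPKM + 1) with limma 3.58.1 (R 4.3.3, intensity trend, equal weights) in 1 model of 14 samples and 4 cells (m/m high-read, db/db vehicle high-read, db/db vehicle low-read, dapagliflozin low-read), which assumes that low-read libraries vary like the others. Genes averaging 0.5 FPKM or more over all 15 libraries were tested, 2-sided, and called at an adjusted p under 0.05. A gene low in 1 library set could therefore pass through the other. Trib3 and Chac1 came from a fit with no filter. A boundary of 5 M reads separated the library sets, and dapagliflozin 2 and 3 were averaged. The steps were tested on simulated independent libraries. Their spread was set beforehand and the alike low-read libraries were not simulated, so this does not measure how calls behave here. The floor of 3 reads covers only counting error.

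The genes and gene lists were chosen with earlier results of these data known. Named genes are the 10, up to 5 called genes per list and comparison by smallest adjusted p, the 3 genes nearest in pattern to the most changed of the 10, and paralogs and markers. Ankhd1, Mars1, Cct6a and other overlapping neighbours were named after their values were seen. Exon overlaps were read from GENCODE on GRCm38 and near-identical transcripts searched with blastn 2.17.0+. Not every opposite-strand overlap is named, as in Eif2ak3, Got2, Jun and Deptor. A planned comparison of proteins was not run. Alternatives covered pseudocount, filter, scaling, library sets, weights, a replicate block and each library left out.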

Additional observations from a re-analysis of the deposited data

Results flagged for a closer look

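Chac1 in the dapagliflozin group had 1 sample far from the others. Dapagliflozin 5 held 1 read of Chac1 (0.279 FPKM) and the other dapagliflozin samples 0, so that the gap to the nearest sample took up the whole range of the group (a ratio of 1 in Dixon's test). A single read makes this value. Of 20 groups of 4 or 5 samples tested, 1 passed, and chance passes about 1 in 20.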

How the results depend on the processing

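With median-of-ratios scaling 1489 genes were higher and 2349 lower and 3 of the 10 were higher, within library sets 1638, 2321 and 3, and with quantile normalization 1586, 1745 and 3. Pooling all libraries mixes library set into both comparisons, and gave 2097 genes higher and 2 of the 10 higher between genotypes. Leaving out 1 library gave 2554 to 3350 genes higher and 816 to 993 lower, with 3 to 5 of the 10 higher and 0 to 1 lower (3 without db/db vehicle 1 or 3, and 0 lower without db/db vehicle 3). Ddit3 and Phgdh kept their calls under all 20 alternatives (adjusted p 0.000378 to 0.0437 and 0.000743 to 0.0184), and Atf4 under all but pooling (adjusted p 3.46e-06 to 0.776). Adjusted p ranged from 0.00156 to 0.187 for Eif4ebp1, 0.00526 to 0.285 for Psat1, 0.0258 to 0.903 for Psph and 0.000177 to 0.0752 for Shmt2, and Psph was called with array weights (0.28, adjusted p = 0.0448).

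For m/m and db/db vehicle 1 to 3, deviations of libraries with the same number correlated at 0.38, 0.05 and −0.01. High-read m/m and db/db vehicle libraries with different numbers stood at −0.30 to 0.19, so only the pair numbered 1 was above them. So few same-number pairs cannot decide whether the numbers pair the libraries. With the replicate block 0 of the 10 were lower between genotypes (Shmt2 −0.19, adjusted p = 0.0752), Psph was called (0.35, adjusted p = 0.0258) and Kars (0.20, adjusted p = 0.0506), Hspe1 (−0.21, adjusted p = 0.123) and Eif4ebp3 (0.31, adjusted p = 0.0942) were not. In the drug comparison the block gave 0 genes higher and 1 lower. Eif4ebp3, at −1.11, was not called with the block (adjusted p = 0.0775). The block also turned Atf4 to 0.0140 and Phgdh to 0.00377.

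The drug counts over all genes were 64 higher and 158 lower with no filter, 27 higher with quantile normalization, 0 and 1 in the low-read libraries alone, 175 and 675 pooled, and 0 and 1 with array weights. Leaving out 1 library gave 1 to 63 higher and 0 to 69 lower. In alternatives chosen after seeing the data, there were 34 lower without dapagliflozin 2 and 3, 7 and 1 without db/db vehicle 5 and dapagliflozin 1, 6 lower without db/db vehicle 4 and dapagliflozin 5, and 28 and 41 with dapagliflozin 1, 2 and 3 averaged. Eif4ebp3 was not called with array weights (−1.05, adjusted p = 0.201).

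Several uncalled differences changed sign. Between genotypes, Trib3 turned to −0.0753 with quantile normalization. Asns turned to −0.0886 with median-of-ratios scaling, −0.0821 within sets, −0.206 with quantile normalization and −0.42 pooled, and ran from −0.11 to 0.15 with 1 library left out. Chac1 turned to −0.0279 and −0.0253 with both scalings, −0.129 with quantile normalization and −0.0784 pooled, and ran from −0.0158 to 0.0826 with 1 library left out. Psph turned to −0.0345 pooled, and Kars, called in the main setting, to −0.0200 and −0.00679 with both scalings. Between treatments, pooling turned Ddit3 to 0.91, Asns to −0.48, Eif4ebp1 to −0.0966, Psph to −0.0681 and Shmt2 to −0.23. Trib3 turned to −0.0555 without db/db vehicle 5 and dapagliflozin 1, and Psat1 to 0.0483 without dapagliflozin 2 and 3. Shmt2 turned to −0.00351 with quantile normalization, −0.0301 with 15 separate libraries and −0.0752 without db/db vehicle 4 and dapagliflozin 5. With 1 library left out, Trib3 ran from −0.0891 to 0.37, Chac1 from −0.31 to 0.0887, Eif4ebp1 from −0.0299 to 0.49, Psat1 from −0.60 to 0.0934 and Shmt2 from −0.0484 to 0.0488. The pooled differences mix library set with genotype or treatment, since m/m is all high-read and dapagliflozin all low-read. The causes of these changes of sign were not tested. Depth limited Asns, Trib3 and Chac1 in the low-read libraries, at 0 to 5 reads.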
